A study of Mus musculus with 10 samples.

Results

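The receptors through which hypothalamic factors reach the mouse pituitary were followed in single-cell RNA counts of 10 libraries. The members were chosen as the receptors for growth hormone releasing hormone (Ghrhr), gonadotropin releasing hormone (Gnrhr), corticotropin releasing hormone (Crhr1), vasopressin in the pituitary (Avpr1b), thyrotropin releasing hormone (Trhr), dopamine (Drd2) and somatostatin (Sstr2, Sstr3 and Sstr5). These are 9 of the 15270 gene symbols that all the count tables share, and 9 of 44288 symbols in any of them.

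Hypothalamic neurons release these factors into the portal blood, and each receptor is a G-protein coupled receptor on the surface of the pituitary cells that read the signal. Ghrhr and Crhr1 act mainly through the stimulatory G protein and cyclic AMP. Gnrhr, Trhr and Avpr1b act mainly through the Gq class and release of calcium. Drd2 and the somatostatin receptors act through inhibitory G proteins and restrain hormone release; dopamine acting on Drd2 is the main brake on prolactin.

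The study dissociated pituitaries of CD1 mice, an outbred stock, without enzymes and counted transcripts as unique molecular identifiers (UMIs). Wild-type (WT) mice of 8 weeks gave 3 female and 3 male libraries, of which 1 of each sex was made with 10X Genomics and 2 of each sex with Drop-seq. The remaining libraries were Drop-seq: 1 from mt/hGRF females of 8 weeks, 1 from a virgin female of 13 weeks and 2 from lactating females of 13 weeks. The mt/hGRF transgene drives human growth hormone releasing factor from a metallothionein promoter, so the factor is made in many tissues and not only in the hypothalamus; some libraries pooled mice.

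After filtering, 23432 cells were kept, between 978 and 5256 per library, with 960289 to 5080590 UMIs per library. The median cell held 534 to 784.5 UMIs in the Drop-seq libraries and 1028 to 1246 in the 10X libraries. Libraries shared at most 6 cell barcodes. Xist and the Y-linked genes went with the labelled sex in all libraries, and the mouse Ghrh symbol had 227 UMIs in the mt/hGRF library against at most 1 elsewhere. In the 10X libraries 58 female and 111 male barcodes held over 10000 UMIs each and took 33.6% and 51.9% of the UMIs; 44.8% and 52.7% of their UMIs came from genes named Rpl or Rps, against 5.07% and 7.21% in the other barcodes. The Drop-seq libraries had at most 5 such barcodes. The mt/hGRF library lost 38.7% of its barcodes to the filter on mitochondrial UMIs, against 6.95% to 20.4% in the other libraries.

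Cells were assigned to classes by marker genes that include none of the 9 receptors: somatotropes (Som), lactotropes (Lac), melanotropes (Mel), corticotropes (Cort), gonadotropes (Gona), thyrotropes (Thy), hormone-rich barcodes read from genes such as Gpx3 and Stmn1 (Mult), and stem, proliferating, macrophage, stromal and other cells. Some marker lists draw on genes that the study lists for its clusters of these libraries. A total of 9150 cells (39.0%) entered a class and the rest stayed ungated, with a median of 594 UMIs for cells that met no gate. The gates held their defining genes, at 1483 Gh UMIs per 10000 in Som, 1706 Pomc in Mel, 185 Tshb in Thy and 70.9 C1qa in macrophages. Hormone RNA was spread over every class, since macrophages also held 190 Gh UMIs per 10000. The Lac gate rested on markers other than Prl and held 537 Prl UMIs per 10000, below the 1683 of Mult. The endothelial gate (63 cells) held 1696 Gh UMIs per 10000, more than Som, and is not described further.

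Upstream sequence of the 3 receptors below is shown because each stood highest in a different class (Gona, Cort and Mel). RefSeq promoters on build GRCm38.p6 matched 5 of the 9 receptors. Each line gives the 250 bases before the RefSeq start, 5′ to 3′ on the strand of the gene, at chr5:86197902-86198151 (minus strand) for Gnrhr, chr11:104132531-104132780 (plus strand) for Crhr1 and chr9:49340153-49340402 (plus strand) for Drd2. Capitals mark matches to the E-box CAGNTG or its reverse complement and to the cyclic AMP response half-site TGACG.
Gnrhr: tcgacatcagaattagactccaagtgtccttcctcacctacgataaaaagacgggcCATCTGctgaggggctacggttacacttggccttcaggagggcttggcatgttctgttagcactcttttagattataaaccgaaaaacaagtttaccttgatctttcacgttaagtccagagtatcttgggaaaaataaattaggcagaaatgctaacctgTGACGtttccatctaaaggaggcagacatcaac
Crhr1: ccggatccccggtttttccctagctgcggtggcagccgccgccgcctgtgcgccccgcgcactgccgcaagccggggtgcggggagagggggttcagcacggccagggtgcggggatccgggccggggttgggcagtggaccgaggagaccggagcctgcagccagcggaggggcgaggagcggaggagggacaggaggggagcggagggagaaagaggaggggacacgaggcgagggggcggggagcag
Drd2: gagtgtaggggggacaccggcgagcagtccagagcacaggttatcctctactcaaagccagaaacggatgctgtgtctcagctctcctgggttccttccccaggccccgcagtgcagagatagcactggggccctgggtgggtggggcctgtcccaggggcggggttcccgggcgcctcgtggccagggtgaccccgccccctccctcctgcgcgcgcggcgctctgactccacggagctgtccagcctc

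The Gnrhr window was AT-rich, with 43.2% G and C, whereas the Crhr1 window had 74.8% and the Drd2 window 68.8%; the median over 32851 windows of the same length was 52.4%. The Gnrhr match to the E-box lay 194 bases before the start and its TGACG 33 bases before it. An E-box match was in 44.8% of all windows and a TGACG in 17.8%, searched on both strands. None of the windows of the matched receptors held AAGGTCA (bound by NR5A1, in 4.08% of all windows), TAATCC (bound by PITX1, in 6.25%) or ATGNATA (bound by POU1F1, in 7.92%). The full palindrome TGACGTCA, which contains the half-site, was in the Sstr2 window and in 1.55% of all windows. A match or its lack describes these letters in this window only.

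Ghrhr (chr6:55376295-55388530, plus strand), which drives growth hormone synthesis and release, was concentrated in Som. In the Som gate its level in WT females was 3.67, 2.65 and 4.07 UMIs per 10000, and in WT males 3.76, 4.41 and 3.88. It was 2.72 in the mt/hGRF library, 3.76 in the virgin library and 3.80 and 2.03 in the lactating libraries. Every library was thus above 2 in this gate, with the lowest value in a lactating library and the highest in a male.

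The mean over libraries was 3.47 ± 0.75 (SD, n = 10) in Som against 0.408 ± 0.199 in the other gated cells of the same libraries. Som was higher in 10 of 10 libraries (exact two-sided sign-flip permutation test, p = 0.00195, the smallest that 10 libraries allow). In the edgeR quasi-likelihood fit across genes, the log2 fold change was 2.85 ± 0.22 (SE, adjusted p = 3.56e-10). Of the 5995 genes tested in that fit, 52.1% were called in either direction, so a call was common in it.

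A Ghrhr UMI was seen in 28.5% of the 2048 Som cells (95% exact binomial interval 26.5% to 30.5%), and at least 2 in 142 of them. In macrophages, which should lack the receptor, the share was 1.02% of 983 cells; the median depth was 894 UMIs in Som and 813 in macrophages. With each cell thinned to 300 UMIs the shares were 9.77% and 0.407%. Of the Ghrhr UMIs in gated cells 64.4% lay in Som, but only 45.8% of all 2636 Ghrhr UMIs lay in gated cells.

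Outside Som the level of Ghrhr was low but not uniform. Gona cells held 0.949 ± 0.998 UMIs per 10000 (SD, n = 9 libraries), Mult 0.638 ± 0.490 (n = 10), Mel 0.532 ± 0.490 (n = 10), Stem 0.428 ± 0.274 (n = 9) and Lac 0.422 ± 0.358 (n = 9). Neighbours in this order differed by less than the larger of their SDs. Macrophages stood at 0.106 ± 0.134 (n = 10), below each of these.

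Against the other gated cells Ghrhr was lower in Lac (log2 fold change −1.63, edgeR adjusted p = 6.06e-05), Mel (−1.01, adjusted p = 0.00681) and macrophages (−3.09, adjusted p = 2.58e-08). The fits behind these calls called 38.4%, 44.8% and 67.4% of their genes. In Gona the difference did not pass (−0.47, edgeR adjusted p = 0.228), and 35 of 390 Gona cells (8.97%) held a Ghrhr UMI at a median depth of 1170.5 UMIs. After thinning that share was 2.05%, above the 0.407% of macrophages. Gona cells also held 543 Gh UMIs per 10000, and the part of free RNA in this share was not tested.

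**Figure D1:**
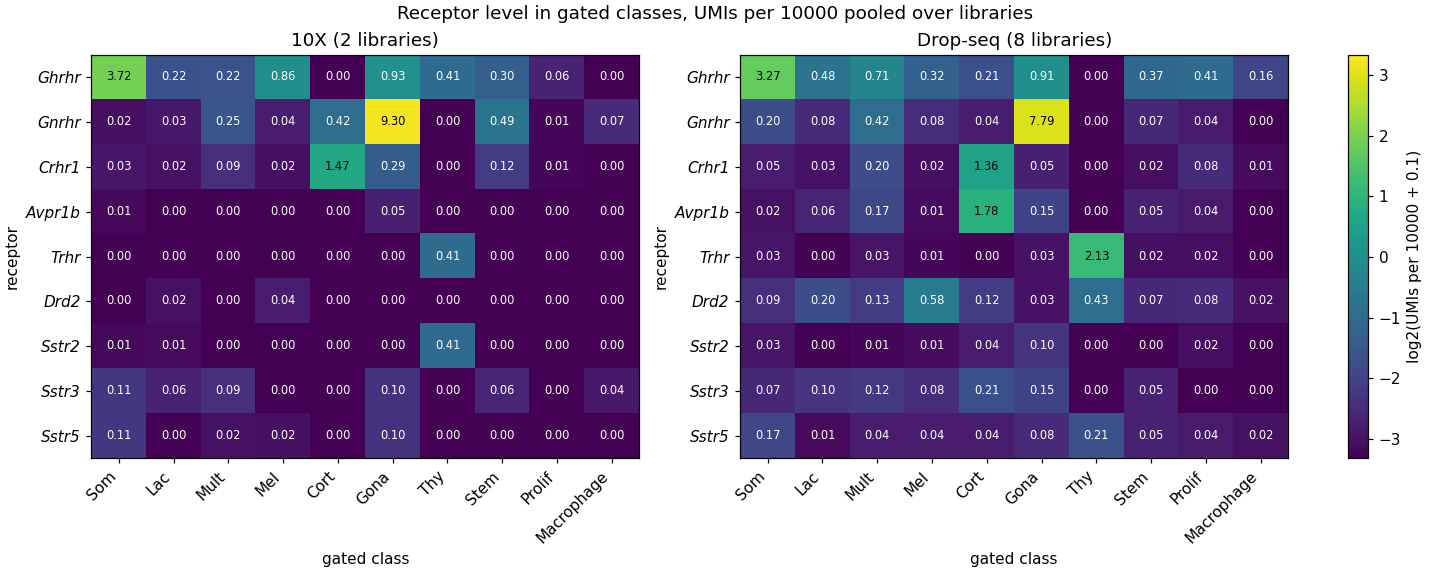
Level of each receptor (rows) in 10 gated classes (columns), pooled over the 10X libraries (left) and the Drop-seq libraries (right); the numbers are UMIs per 10000 and the colours log2(UMIs per 10000 + 0.1). Ghrhr was brightest in Som and Gnrhr in Gona on both platforms, and Drd2 in Mel stood at 0.0409 by 10X and 0.576 by Drop-seq.

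Gnrhr (chr5:86180754-86197901, minus strand), through which the hypothalamus drives secretion of the gonadotropins, was the receptor most confined to 1 gate by the share of its UMIs. In the Gona gate its level in the WT females with at least 20 such cells was 8.61 and 7.40 UMIs per 10000, and in the WT males 9.95, 3.66 and 7.73. It was 4.77 in the mt/hGRF library, 12.2 in the virgin library and 9.38 and 6.56 in the lactating libraries. The remaining WT female library had 15 Gona cells with 18 UMIs. The virgin library was the highest and a WT male the lowest, and each was far above its own other cells.

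The mean was 7.80 ± 2.62 (SD, n = 9) in Gona against 0.137 ± 0.071 in the other gated cells, higher in 9 of 9 libraries (exact sign-flip permutation test, p = 0.00391, the smallest that 9 libraries allow). The edgeR log2 fold change was 5.55 ± 0.25 (SE, adjusted p = 2.26e-17), in a fit that called 26.5% of 4583 genes. At its low level in the other gated cells, Gnrhr passed the count filter of that fit through its Gona counts. Its call there is therefore no separate support for the higher level in Gona. Gona held 75.1% of the Gnrhr UMIs in gated cells (95% interval 71.6% to 78.3%).

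A Gnrhr UMI was seen in 52.1% of Gona cells (95% exact interval 47.0% to 57.1%), and in 22.3% after thinning to 300 UMIs. Macrophages with a Gnrhr UMI made up 0.204%, and none remained after thinning. Levels of the next classes were 0.413 ± 0.350 in Mult (n = 10), 0.197 ± 0.278 in Som (n = 10) and 0.0824 ± 0.0952 in Mel (n = 10), with neighbours again closer than the larger of their SDs. In the edgeR fits Gnrhr was lower in Som (log2 fold change −2.40, adjusted p = 1.59e-04) and in Mel (−2.84, adjusted p = 8.94e-07), and in Mult it did not pass (−0.15, adjusted p = 0.609, in a fit that called 52.5% of genes).

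Crhr1 (chr11:104132855-104175523, plus strand) and Avpr1b (chr1:131599239-131612000, plus strand) are the receptors by which corticotropin releasing hormone and vasopressin together drive corticotropes, and both stood highest in Cort. Cort was a small gate of 190 cells, and 3 libraries had at least 20. In these, Crhr1 was at 3.04 UMIs per 10000 in a WT male library, 0.874 in the virgin library and 0.988 in a lactating library. Avpr1b in the same libraries was at 1.74, 4.08 and 0.198. The order of the libraries thus differed between the receptors, the male being highest for Crhr1 and the virgin for Avpr1b.

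Crhr1 was at 1.63 ± 1.22 (SD, n = 3) in Cort against 0.0405 in other gated cells, and Avpr1b at 2.004 ± 1.95 against 0.0522. Both were higher in 3 of 3 libraries, where the exact sign-flip permutation test cannot go below p = 0.25. With libraries of at least 10 Cort cells, an alternative added after the data were seen, Crhr1 was higher in 9 of 10 libraries (exact p = 0.00391) and Avpr1b in 8 of 10 (exact p = 0.00781). In the edgeR fit over the 3 libraries the log2 fold changes were 4.47 ± 0.61 for Crhr1 (SE, adjusted p = 7.42e-11) and 4.68 ± 0.61 for Avpr1b (adjusted p = 2.65e-12). That fit called 8.68% of 7906 genes, and 4 of the receptors passed its count filter: these 2 were higher, and Ghrhr and Gnrhr lower. At their low levels in the other gated cells, Crhr1 and Avpr1b passed that filter through their Cort counts. Their calls in this fit are therefore no separate support for the higher level in Cort.

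Over all 10 libraries 31 of 190 Cort cells (16.3%) held a Crhr1 UMI and 23 (12.1%) an Avpr1b UMI. Macrophages had 1 cell with Crhr1 of 983 and 0 with Avpr1b, which allows a share of macrophages with a UMI of up to 0.305%; the median depths were 1093 UMIs in Cort and 813 in macrophages. After thinning the Cort shares were 3.68% and 3.16%. Avpr1b had no UMI in the 27 Cort cells of the 10X libraries, whereas Crhr1 had 7 there.

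Mult held the next highest Crhr1 level among the gates, at 0.236 ± 0.255 (SD, n = 10), higher than the other gated cells in 7 of 10 libraries (exact sign-flip p = 0.0527). With profile-assigned cells this order turned, with 0.380 UMIs per 10000 in Gona and 0.0859 in Mult. None of the 29 profile-assigned Gona cells with a Crhr1 UMI held a Gnrhr UMI. The Mult gate also held 27.5% of the gated Avpr1b UMIs and 29.9% of the gated Crhr1 UMIs, against 47.3% and 37.4% in Cort. Pomc stood at 445 UMIs per 10000 in Mult and 815 in Cort. Mel, which share Pomc with corticotropes (1706 per 10000), held 4 Crhr1 and 2 Avpr1b UMIs in 1401 cells.

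Trhr (chr15:44196135-44235912, plus strand), which drives thyrotropin release and can also act on prolactin, was rare, with 45 UMIs in all kept cells. The Thy gate held 70 cells, of which 9 had a Trhr UMI. Of 23 Trhr UMIs in gated cells 11 were in Thy, and no other class held more than 4. Thy stood at 1.54 UMIs per 10000 (95% exact Poisson interval 0.768 to 2.75).

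By library, Trhr in Thy ranged from 0 to 5.41 with a median between 0.778 and 1.21, on 2 to 21 cells. Libraries without a Trhr UMI in Thy were all female: 3 WT, with 4, 2 and 2 Thy cells, and the virgin, with 8. The other female libraries (mt/hGRF, lactating 1 and lactating 2) held Trhr UMIs in Thy, so these zeros on few cells show no sex difference. Only 1 library had 20 Thy cells (1.21 UMIs per 10000), so the planned test over libraries could not be made. With every library counted whatever its number of Thy cells, Thy was higher in 6, lower in 2 and equal at 0 in 2 (exact sign-flip permutation p = 0.0313).

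Drd2 (chr9:49340627-49408177, plus strand) stood highest in Mel, the cells of the intermediate lobe that dopamine neurons innervate directly. Its level in Mel was 0.0725, 1.12 and 0.861 UMIs per 10000 in the WT females and 0, 0.725 and 0.501 in the WT males, the first of each being the 10X library. It was 0.134 in the mt/hGRF library, 0.659 in the virgin library and 0.657 and 0.278 in the lactating libraries. The 10X libraries were the lowest and the mt/hGRF library the next.

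The mean was 0.501 ± 0.370 (SD, n = 10) in Mel against 0.0871 ± 0.0622 in other gated cells, higher in 9 of 10 libraries (exact sign-flip permutation p = 0.00391). Drd2 did not pass the count filter of the edgeR fit of gated Mel against the other gated cells. With the ungated cells assigned to the class of the most likely profile (alternative added after the data were seen), Drd2 in Mel had a log2 fold change of 2.36 ± 0.22 (SE, edgeR adjusted p = 5.80e-08), in a fit that called 32% of genes. A Drd2 UMI was in 5.35% of 1401 Mel cells and in 0.204% of macrophages, at median depths of 979 and 813 UMIs. After thinning the shares were 1.499% and 0.204%.

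In Lac, the classical target of dopamine, Drd2 was at 0.131 ± 0.180 UMIs per 10000 (SD, n = 9) against 0.151 ± 0.122 in other gated cells. The Lac values were 0.0165, 0 and 0.560 in the WT females, 0.0381 and 0.0692 in 2 WT males, 0.251 in mt/hGRF, 0 in the virgin and 0.0892 and 0.152 in the lactating libraries. Lac was higher in 5 of 9 libraries and lower in 4 (exact sign-flip permutation p = 0.742), and the sign of the mean difference turned when other gates were used. A single WT female library, with 9 of the 18 Lac UMIs, set the top of the range. A Drd2 UMI was in 1.08% of 1392 Lac cells and, after thinning, in 0.359%, against 0.204% of macrophages both times. Of these Lac cells 690 came from the 10X libraries, where Lac held 2 Drd2 UMIs, whereas 203 of the Mel cells did. The part of this platform mix in the lower share of Lac was not tested. Barcodes under the cell limit in the Drop-seq libraries held 0.163 Drd2 UMIs per 10000, and 2 of the 7 Drop-seq Lac values lay above that level and 5 below. Of the 1598791 UMIs behind that pooled level, lactating 2 gave 91 and the mt/hGRF library 55104. With the profile-assigned cells Drd2 in Lac did not pass (log2 fold change 0.26, edgeR adjusted p = 0.456), in a fit that called 49.2% of genes.

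Among the somatostatin receptors, which restrain growth hormone and thyrotropin release, Sstr5 (chr17:25489875-25497288, minus strand) stood higher in Som than in the other gated cells. Its Som level was 0.130, 0 and 0.145 UMIs per 10000 in the WT females, 0.0931, 0.275 and 0.233 in the WT males, 0.121 in mt/hGRF, 0.313 in the virgin and 0.129 and 0.0999 in the lactating libraries. The mean was 0.154 ± 0.094 (SD, n = 10) against 0.0337 ± 0.0385, higher in 9 of 10 libraries and equal at 0 in the other (exact sign-flip permutation p = 0.00391). Each of the 32 Sstr5 UMIs in Som lay in a different cell, 1.56% of Som cells against 0.204% of macrophages. Lac held 1 Sstr5 UMI in 1392 cells.

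Sstr3 (chr15:78537008-78544685, minus strand) was seen in several endocrine classes. Its level was 0.0858 ± 0.117 in Som, 0.0793 ± 0.103 in Lac, 0.0791 ± 0.105 in Mel, 0.140 ± 0.114 in Mult and 0.142 ± 0.165 in Gona. Barcodes under the cell limits held 0.0813 Sstr3 UMIs per 10000 by Drop-seq and 0.0767 by 10X, near the Som, Lac and Mel levels. Cort held 5 UMIs in 190 cells, or 0.173 UMIs per 10000, and 3 of the 5 came from WT female 2. With profile-assigned cells Cort was at 0.167, from 7 UMIs. Thy held 0 in 70 cells, which allows a share of cells with a UMI of up to 4.29%. Som was higher than the other gated cells in 4 of 10 libraries (exact sign-flip permutation p = 0.672). Mult was higher in 8 of 10 (exact p = 0.0273), a class not fixed for this receptor, but with profile-assigned cells it did not pass (7 of 10, exact p = 0.0645). Macrophages held 1 Sstr3 UMI and proliferating cells 0 in 435 cells.

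Sstr2 (chr11:113619342-113626028, plus strand), which overlaps Slc39a11 on the other strand, had 33 UMIs in all kept cells. Som held 5, at 0.0248 ± 0.0301 UMIs per 10000 (SD, n = 10) against 0.0125 ± 0.0155 in other gated cells (exact sign-flip permutation p = 0.219). A difference between Som and the other gated cells was not detectable at this depth. Gona held 4 Sstr2 UMIs in 390 cells, or 0.0665 per 10000. Drd2, Trhr and the somatostatin receptors did not pass the count filter of any edgeR fit of 1 gated class against the other gated cells.

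**Figure D2:**
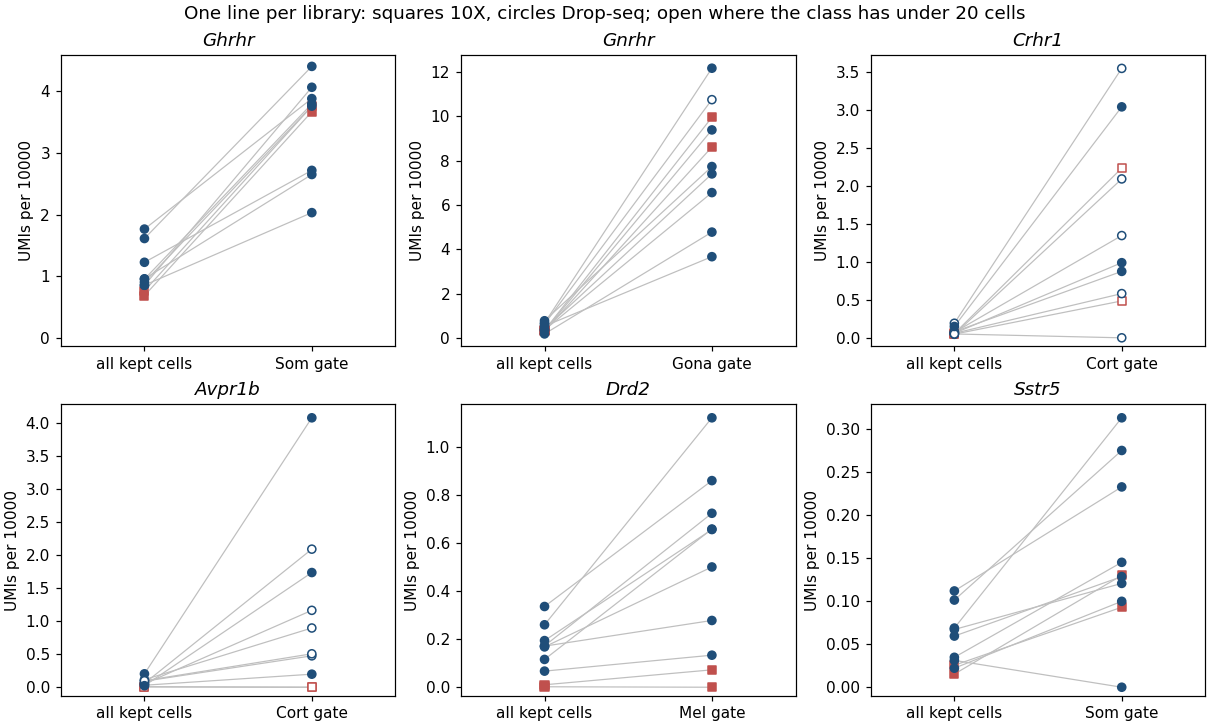
Level of 6 receptors (vertical axis, UMIs per 10000) in all kept cells and in the gate named below each panel, with a line for each library, squares for 10X, circles for Drop-seq and open symbols where the class has under 20 cells. The lines rise in every library for Ghrhr and Gnrhr, and 1 Drop-seq library falls to 0 for Crhr1 in Cort and 1 for Sstr5 in Som.

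Few cells held more than 1 kind of receptor, where a single receptor was seen in 0.137% (Sstr2) to 8.58% (Ghrhr) of kept cells. Crhr1 and Avpr1b shared 19 cells, of 166 with Crhr1 and 97 with Avpr1b, and 11 of the 19 were Cort by profile. Within the Cort gate 22.6% of cells with a Crhr1 UMI also held Avpr1b, against 10.06% of cells without one, but the cells with Crhr1 were deeper, with a median of 2088 UMIs against 972. Ghrhr and Sstr5 shared 26 cells, 22.8% of the cells with Sstr5, beside Ghrhr in 8.58% of all kept cells. Of the 26 cells 18 were Som by profile. Within the Som gate 1.20% of cells with a Ghrhr UMI held Sstr5, against 1.71% of cells without one, and with profile-assigned cells the order turned, at 1.24% against 1.04%. Som cells with Ghrhr were deeper, with a median of 1084 UMIs against 837 in the gate and 841 against 631 by profile. Ghrhr and Gnrhr shared 64 cells, of 2011 with Ghrhr and 588 with Gnrhr. None of the gated Gona cells with Gnrhr held Crhr1, against 2.67% (5 cells) of those without Gnrhr. With profile-assigned cells none with Gnrhr held Crhr1, against 4.2% (29 cells) of those without Gnrhr.

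The genes whose levels over 15 classes were most like each receptor were named, among 11087 genes with at least 200 UMIs that mark no gate, by Pearson correlation of log2(UMIs per 10000 + 0.1), which is a description, since the classes share the same libraries and unequal depth. Ghrhr was most like Neb (r = 0.926), Ano5 (0.918) and Rgs16 (0.911). Gnrhr was most like Tgfbr3l (0.862), a coreceptor of the inhibin and TGF-beta pathway, Uba6 (0.840) and Steap2 (0.836). Avpr1b was most like Crhr1 (0.994), followed by Mcub (0.904) and Trmt61b (0.883), and after Avpr1b, which itself had fewer than 200 UMIs, these were also the closest to Crhr1 (0.907 and 0.887), before Srxn1 (0.865).

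Drd2 was most like Gnal (0.873), the alpha subunit of the olfactory G protein, Mest (0.848) and Otub2 (0.829). Trhr was most like 9630013D21Rik (0.907), Col24a1 (0.826) and Gm26512 (0.822). Among the somatostatin receptors, Sstr5 was most like Cacna1h (0.900), a T-type calcium channel, Pcolce2 (0.889) and Fsd1l (0.863). Sstr3 was most like Fitm2 (0.944), Svip (0.906) and Jakmip2 (0.905), and Sstr2 most like Gm42583 (0.853), Lrrtm2 (0.844) and Ttc25 (0.843). Trhr had 45 UMIs and Sstr2 33 in all kept cells, so their correlations rest on few counts. The 15 classes compared included the endothelial gate.

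The platforms differed most for Drd2. Over the 8-week WT mice the 10X libraries held 5 Drd2 UMIs and the Drop-seq libraries 136, that is 0.00556 against 0.234 UMIs per 10000. The ratio of Drop-seq to 10X was 42.1 (95% counting interval 17.6 to 132), and the lowest Drop-seq library (0.168) was above the highest 10X library (0.0102). Avpr1b (10.8, interval 4.59 to 31.2) and Trhr (10.8, interval 3.24 to 56.8) also differed without overlap of the libraries, as did Ghrhr, Gnrhr, Sstr3 and Sstr5 by smaller ratios. Without the barcodes over 10000 UMIs, an alternative added after the data were seen, the ratios were 29.6 for Drd2 (interval 11.3 to 110), 6.10 for Avpr1b (2.58 to 17.6) and 6.10 for Trhr (1.82 to 31.9), still without overlap, whereas the libraries overlapped for the other 6 receptors. The share of all genes without overlap between the platforms was not counted. How many receptors lacked overlap is therefore description only.

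Ratios of the other receptors were smaller: 3.51 for Sstr5, 3.24 for Sstr3, 2.48 for Crhr1, 2.21 for Sstr2 (interval 0.760 to 6.85), 1.84 for Gnrhr and 1.84 for Ghrhr (interval 1.65 to 2.04). Without the deep 10X barcodes the ratio was 1.06 for Gnrhr (interval 0.905 to 1.25) and 1.05 for Ghrhr (0.946 to 1.17), and it fell to 1.97 for Sstr5, 1.88 for Sstr3, 1.74 for Sstr2 and 1.41 for Crhr1. Within the gates of the 8-week WT libraries Ghrhr in Som was at 3.72 by 10X and 3.82 by Drop-seq, and Gnrhr in Gona at 9.30 and 7.20, whereas Drd2 in Mel was at 0.0409 and 0.767. The intervals cover counting error only. The platforms used different mice and counting programs, which cannot be told apart from the chemistry.

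**Figure D3:**
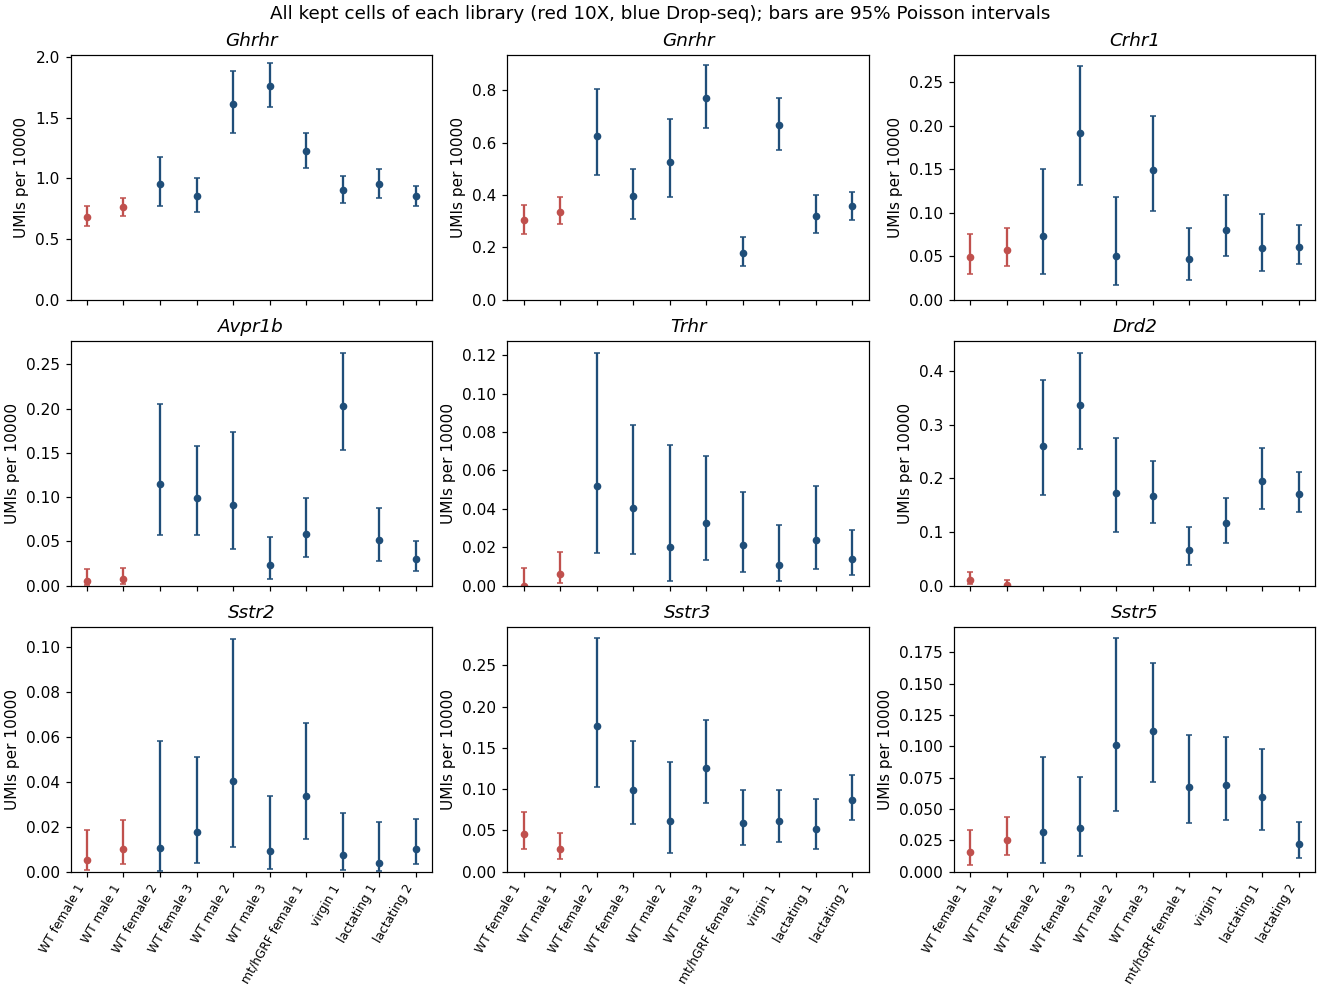
Level of each receptor over all kept cells (vertical axis, UMIs per 10000) in each of the 10 libraries (horizontal axis), red for 10X and blue for Drop-seq, with exact 95% Poisson intervals. For Drd2, Avpr1b and Trhr, and more narrowly for Ghrhr and Sstr3, both 10X libraries lie below every Drop-seq library, and Avpr1b is highest in the virgin library.

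The first comparison between conditions was that of male with female WT mice of 8 weeks, over all kept cells. Ghrhr was at 0.684, 0.958 and 0.853 UMIs per 10000 in the females and 0.762, 1.61 and 1.77 in the males, the first of each being 10X. Males were above females on each platform, although the 10X male lay within the female range. Without the barcodes over 10000 UMIs the 10X female stood at 1.02 and the 10X male at 1.55, and every male was above every female. The log2 fold change of male over female with platform as a term was 0.77 ± 0.26 (SE, edgeR adjusted p = 1.0), and 0.81 ± 0.24 without those barcodes (edgeR adjusted p = 1.0). In such totals fewer cells of a type and less RNA per cell cannot be told apart. The Som gate took 17.9%, 6.54% and 8.03% of cells in the females and 27.3%, 6.91% and 13.2% in the males, and within Som the Ghrhr level did not differ beyond its error (log2 fold change 0.19 ± 0.28, edgeR adjusted p = 0.998, in a fit that called 0.207% of genes).

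Sstr5 over all cells was at 0.0153, 0.0312 and 0.0348 in the females and 0.0256, 0.101 and 0.112 in the males (log2 fold change 1.48 ± 0.51, edgeR adjusted p = 1.0). Drd2 went the other way, at 0.0102, 0.2603 and 0.337 in the females and 0.00197, 0.172 and 0.168 in the males (−0.96 ± 0.37, edgeR adjusted p = 1.0). On each platform every male stood above every female for Sstr5 and below every female for Drd2. By 10X this rests on 13 Sstr5 UMIs in the male and 6 in the female, and on 1 and 4 Drd2 UMIs. The share of all genes that separated the sexes on each platform, as Sstr5, Drd2 and Ghrhr did, was not counted. In Mel, Drd2 was 30 UMIs in the females and 13 in the males (−0.999 ± 0.61, edgeR adjusted p = 1.0, in a fit that called 0.141% of genes).

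Of 7 receptors that passed the count filter none was called between the sexes, nor was any of 15639 genes (0%) by edgeR, while 299 genes (1.91%) and 3 of the receptors (Ghrhr, Drd2 and Sstr5) had an unadjusted p under 0.05. DESeq2 called 21 genes and 0 receptors. Even Xist, with a log2 fold change of −9.06, was not called by edgeR here, so the lack of a call says little about the receptors. Gnrhr in Gona was at 8.61 and 7.40 in the females and 9.95, 3.66 and 7.73 in the males (log2 fold change 0.00 ± 0.34, edgeR adjusted p = 1.0, in a fit that called 0.7% of genes). The receptors' median log2 fold change was −0.03, beside 0.02 over all genes tested.

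The mt/hGRF transgene asked how the pituitary responds to an excess of the Ghrhr ligand, and the 1 library was compared with the 2 Drop-seq libraries of WT females of the same age. Ghrhr over all cells was at 1.23 UMIs per 10000 in the transgenic library and 0.958 and 0.853 in the WT (log2 fold change 0.63 ± 0.36, edgeR adjusted p = 0.584). Within Som it was at 2.72 in the transgenic library and at 2.65 and 4.07 in the WT, so that the transgenic value lay between the WT values (−0.24 ± 0.47, edgeR adjusted p = 0.955, in a fit that called 0.293% of genes). With profile-assigned cells it was at 2.69 in the transgenic library, below the 3.62 and 4.02 of the WT (−0.36 ± 0.38, edgeR adjusted p = 0.807, with 0.217% of genes called). The Som gate took 6.19% of the transgenic cells and 6.54% and 8.03% of the WT cells, whereas profile-assigned Som made up 40.7% against 21.0% and 21.1%. The part of this share in the level over all cells was not tested.

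Drd2 was lower in the transgenic library, at 0.0672 against 0.2603 and 0.337 (log2 fold change −1.94 ± 0.49, edgeR adjusted p = 0.301). In Mel it had 1 UMI in 73 cells, or 0.134 UMIs per 10000, against 1.12 and 0.861 (−2.99 ± 1.13, edgeR adjusted p = 0.896, with 0% of genes called). The Mel gate took 2.61% of the transgenic cells and 4.29% and 7.49% of the WT cells. Gnrhr was at 0.176 in the transgenic library against 0.625 and 0.395 (−1.34 ± 0.51, edgeR adjusted p = 0.414), and the Gona gate took 0.965% against 1.53% and 2.02% of cells. By profile the Gona share of the transgenic library lay between those of the WT, at 4.43% against 3.58% and 7.22%, and the Mel share below them, at 5.36% against 6.24% and 10.3%. The library also had the high mitochondrial loss given above, whose part in these values was not tested.

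No gene of 18359 (0%) and none of the 8 receptors that passed the filter was called by edgeR for the transgene, while 1933 genes (10.5%) and 2 of the receptors (Drd2 and Gnrhr) had an unadjusted p under 0.05. DESeq2 called 201 genes and 0 receptors. The receptors had a median log2 fold change of −0.96, beside −0.08 over all genes tested. Within the gated classes the smallest adjusted p of any receptor was 0.476, for Crhr1 in Mult, with 0 UMIs in the transgenic library and 10 in the WT, in a fit that called 0.181% of genes.

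Lactating females were compared with the virgin of the same age. Avpr1b over all cells was at 0.203 UMIs per 10000 in the virgin library and at 0.0516 and 0.0302 in the lactating libraries, both below it (log2 fold change −2.09 ± 0.74, edgeR adjusted p = 1.0). The Cort gate took 1.20% of cells in the virgin and 0.710% and 0.628% in the lactating libraries, and within Cort Avpr1b was at 4.08 against 1.16 and 0.198, from 28 UMIs in 44 cells of the virgin against 2 UMIs in 19 cells and 1 UMI in 33 cells. With profile-assigned cells these levels were 3.36 against 1.06 and 0.734, both lactating values again below the virgin. When only these 3 libraries entered the fit, Avpr1b passed (−2.14 ± 0.49, edgeR adjusted p = 0.00222), as 1 receptor among 209 of 14379 genes called (1.45%). Which of the changes in that fit (the libraries behind the spread, the count filter or the scaling) moved the call was not tested.

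Gnrhr was at 0.667 in the virgin and 0.321 and 0.357 in the lactating libraries (log2 fold change −0.70 ± 0.44, edgeR adjusted p = 1.0), and within Gona at 12.2 against 9.38 and 6.56 (−0.59 ± 0.44, edgeR adjusted p = 0.809, in a fit that called 0.218% of genes). Drd2 was at 0.116 in the virgin and 0.194 and 0.171 in the lactating libraries (0.91 ± 0.44, edgeR adjusted p = 1.0). In Mel its order was not kept, with 0.659 in the virgin against 0.657 and 0.278. Ghrhr was at 0.902 in the virgin and 0.952 and 0.854 in the lactating libraries, which lay on both sides of it.

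By edgeR, 0 of 18359 genes (0%) and none of the 8 receptors tested were called for lactation, with 307 genes (1.67%) and 1 receptor (Avpr1b) at an unadjusted p under 0.05; DESeq2 called 5 genes and 0 receptors. The receptors' median log2 fold change was 0.06, beside 0.04 over all genes. The virgin group is 1 mouse, so the difference cannot be told apart from that animal.

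**Figure D4:**
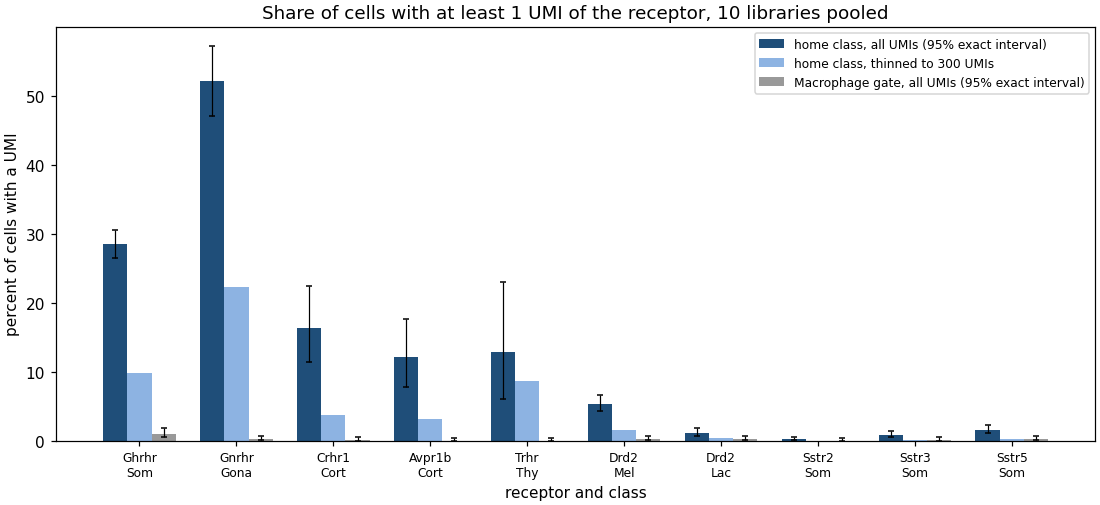
Percent of cells with at least 1 UMI of the receptor (vertical axis) in the class named under it, with all UMIs (dark bars) and after thinning to 300 UMIs (light bars), and in macrophages with all UMIs (grey bars); lines are exact 95% binomial intervals and the libraries are pooled. Gnrhr in Gona (52.1%) and Ghrhr in Som (28.5%) stand highest, and each dark bar is taller than its thinned bar.

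The G proteins and enzymes behind the receptors were read from a list of 42 signal transducers and one of 30 other receptors. In Som 8 of the 24 transducers tested were higher and 7 lower, with a median log2 fold change of −0.10 beside 0.06 over all genes. Over all genes in that fit 52.1% were called, 25.5% higher and 26.7% lower. Protein kinase C alpha (Prkca, 0.95) was higher, whereas Rgs2, which shortens Gq signals (−2.03), Gnai2 and Gnai3, alpha subunits of inhibitory G proteins (−1.76 and −1.32), and Arrb2 (−1.11) were lower, with edgeR adjusted p between 1.56e-08 and 4.93e-04. Among the cells compared with, Rgs2 was higher in macrophages (log2 fold change 3.12) and stem cells (1.26) and lower in proliferating cells (−1.89).

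In Gona 2 transducers were higher and 2 lower of 19 tested (median −0.09 beside −0.02 over all genes), where 26.5% of all genes were called. The calcium release channel Itpr1 (log2 fold change 1.78, edgeR adjusted p = 4.81e-06) and Arrb2 (1.401, adjusted p = 8.66e-06) were higher, and Rgs2 (−2.75, adjusted p = 3.42e-08) and Gnai2 (−0.80, adjusted p = 0.0194) lower. In Mel, where 44.8% of all genes were called, 4 of 20 were higher and 7 lower (median −0.01 beside 0.03), with the phosphodiesterase Pde10a higher (1.79, edgeR adjusted p = 5.94e-09) and Rgs2 (−1.80), Gnai2 (−1.38), Prkce (−1.37) and Arrb2 (−0.98) lower.

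In Lac 7 of 25 were higher and 7 lower (median −0.13 beside 0.02 over all genes), in a fit that called 38.4% of all genes. The phospholipases Plcb1 (log2 fold change 1.21) and Plcb4 (0.91) and the cyclase Adcy6 (0.95) were higher there, and Itpr2 (−1.80) and Gnai2 (−1.36) lower, with edgeR adjusted p of at most 5.78e-04. In Cort, where 8.68% of all genes were called, 3 of 30 were higher and 1 lower (median −0.12 beside −0.31). Pde4d (2.02), Crem (1.46) and Gnas, the stimulatory alpha subunit (0.85), were higher and Arrb2 (−4.08) lower. These Cort calls rest on the 3 libraries with at least 20 Cort cells. With libraries of at least 10 cells, Arrb2 (−4.01, edgeR adjusted p = 4.74e-07) and Crem (0.99, edgeR adjusted p = 0.0164) were called in the same directions. Pde4d and Gnas were not among the called transducers of largest change there, and their calls are not taken to hold.

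Of the other receptors 29 were measured and 2 to 4 passed the count filter in each class. The glucocorticoid receptor Nr3c1 was higher in Cort (log2 fold change 1.75, edgeR adjusted p = 5.85e-07) and Som (0.52, adjusted p = 0.00505) and lower in Mel (−2.31, adjusted p = 4.04e-08) and Lac (−2.22, adjusted p = 1.01e-06). The estrogen receptor Esr1 was higher in Lac (0.86, edgeR adjusted p = 0.00268), Gona (0.96, adjusted p = 0.0118) and Mult (0.93, adjusted p = 0.00102), and with profile-assigned cells it was not called in Gona. The angiotensin receptor Agtr1a was higher in Cort over 3 libraries (2.39, edgeR adjusted p = 0.0429) but was not called there with profile-assigned cells or with libraries of at least 10 cells, and the GABA receptor subunit Gabbr1 in Lac (0.64, edgeR adjusted p = 0.00721). Over all kept cells edgeR called no gene between conditions, these lists included. With profile-assigned cells Agtr1a was higher in male than female Lac (2.06, edgeR adjusted p = 0.0252), in a fit that called 0.541% of genes. Pde10a was higher in profile-assigned Som of the transgenic library (1.81, edgeR adjusted p = 0.0417), where 0.217% of genes were called. That arm is 1 library, the one with the high mitochondrial loss, and it cannot be told apart from the transgene.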

How the data were processed

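The authors mapped Drop-seq reads to mm10 with Gencode annotation, kept uniquely mapped exonic reads on the strand of the gene and merged UMIs within 1 mismatch. The submitters' processing notes name STAR 2.5.2a and, for the 10X libraries, Cell Ranger, whose version is not given in the sources used here. The deposited values are raw UMI counts per gene and barcode. Here barcodes needed at least 300 UMIs and 100 to 4000 genes (Drop-seq) or 200 to 3000 genes (10X), and at most 10% mitochondrial UMIs. No upper limit on UMIs and no doublet caller were used. A barcode that met several gates entered the leading one if it exceeded the next at least 2-fold, and otherwise entered no class.

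Most gates needed at least 2 UMIs of at least 2 different markers, enriched at least 2-fold, and Mel also needed Pomc at 2% of UMIs or more. Cort needed that Pomc share, any UMI of a corticotrope marker enriched at least 2-fold, and no Mel marker. Thy needed at least 5 UMIs of Tshb or Dio2, with Tshb at 0.5% of UMIs or more. Red blood cells needed 20% haemoglobin UMIs. The leading gate had to exceed the next at least 2-fold. Gated counts were summed per library and tested with edgeR 4.0.16 (TMM, quasi-likelihood, Benjamini-Hochberg over all genes tested, threshold 0.05), with DESeq2 1.42.0 as the alternative, and with exact sign-flip tests over libraries of at least 20 cells. The SE beside an edgeR fold change is its absolute log2 value divided by the square root of the F statistic of its test. Intervals are exact at 95% and cover counting error only, and 3 counts served as the limit that a count of 0 allows. The fits were tested on simulated data.

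The other receptors and transducers named are, for each fit, up to 5 called genes of largest change. Of each receptor's likeness, the 3 closest genes are named. Members, lists and gate limits were chosen with earlier results of these data known. The titles of 4 Drop-seq libraries link the sexes by a code, and the 10X libraries, which carry none, were paired by platform; over all genes the deviations of the paired libraries correlated at 0.617 and 0.768 (same code) and 0.946 (10X), where the contrast of platforms contributes, and at 0.210 within Drop-seq. The TGACG motifs were added after the promoter windows were seen. Positions are from a Gencode annotation of the same build. Replicates are separate samples in the labels, some of them pools of mice.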

Additional observations from a re-analysis of the deposited data

Results flagged for a closer look

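In 2 receptors the difference between the sexes went one way in the 10X libraries and the other way in every Drop-seq library of the 8-week WT mice. For Avpr1b the male minus female level was 0.00277 UMIs per 10000 by 10X, from 4 UMIs in the male and 2 in the female, and −0.0493 by Drop-seq, from 14 UMIs in 2 males and 28 in 2 females. For Trhr it was 0.00591 by 10X, from 3 UMIs in the male and 0 in the female, and −0.0199 by Drop-seq, from 9 UMIs and 12 UMIs. The difference between the platforms was not tested, and each 10X value rests on 1 library per sex and at most 4 UMIs. The share of all genes that turned between the platforms in this way was not counted. The count of 2 receptors is therefore description only.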

How the results depend on the processing

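The higher level of Ghrhr in Som, Gnrhr in Gona, Drd2 in Mel and Sstr5 in Som kept its direction and its side of the threshold under every alternative run. In Cort, more libraries brought Crhr1 past the threshold of the sign-flip test (class minus other cells 1.46 UMIs per 10000 with profile-assigned cells and 1.46 with at least 10 cells) and Avpr1b (1.44 and 1.06). In edgeR fits neither passed the count filter with at least 10 cells, and with profile-assigned cells both were called (log2 fold changes 4.19 and 4.68). There too both passed the filter through their Cort counts, so these calls are no separate support. With 1 library left out, class minus other cells ranged from 0.879 to 1.97 for Crhr1 and from 0.953 to 2.84 for Avpr1b. Drd2 in Lac, at −0.0203, turned to 0.00852 with 3 marker UMIs, 0.0512 with hormone genes in the gates, 0.0641 with profile-assigned cells and 0.00490 with at least 10 cells, and ranged from −0.0558 to 0.0168 with 1 library left out, turning without lactating 1 and without WT female 2. Sstr3 in Som, at 0.0136, was −0.00106 without the 10X libraries and ranged from −0.00794 (without WT female 2) to 0.0279.

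Genes called over all kept cells moved from 0. For sex, DESeq2 called 21, no filter 42, library sizes excluding Gh, Prl and Pomc 3, cells of at least 500 UMIs 1, Drop-seq alone 3, and 1 library left out 0 to 63 (above 0 without WT female 2 or 3). For mt/hGRF these were 201 (DESeq2), 861 (no filter), 1 (500 UMIs) and 2 to 623 (1 library left out); for lactation 5, 20 and, with the contrast's libraries alone, 209, of which 1 was a receptor (Avpr1b, log2 fold change −2.14). The cause was not tested. The fit with a replicate block that pairs the sexes by code (10X by platform) called 0 genes and 0 receptors, with log2 fold changes of 0.78 (Ghrhr), −0.95 (Drd2) and 1.47 (Sstr5), and changed no other call.

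Directions that turned, all short of the threshold in log2 fold change, were these. Between the sexes, Crhr1 was 0.00113 without a filter and 0.152 at 500 UMIs and 0.0669 without barcodes over 10000 UMIs, and Gnrhr in Gona −0.0367 with DESeq2, −0.0333 with the other library sizes, −0.00243 at 500 UMIs, −0.22 with profile-assigned cells, −0.13 with Drop-seq alone and −0.0262 without barcodes over 10000 UMIs. In lactation, profile-assigned cells gave 0.28 for Ghrhr in Som and 0.0131 for Drd2 in Mel. With 1 library left out the ranges were −0.42 to 0.52 (Crhr1), −1.20 to 0.21 (Avpr1b) and −0.23 to 0.24 (Gnrhr in Gona) between the sexes, −0.41 to 0.0105 for Ghrhr in Som with the transgene, and −0.70 to 0.0502 (Ghrhr in Som), −0.80 to 0.0619 (Drd2 in Mel), −0.27 to 0.00181 (Crhr1) and −0.11 to 0.89 (Sstr3) in lactation.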

Other observations

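The receptors were also counted in barcodes under the limits for cells, which may hold free RNA or small and damaged cells; which of these was not tested. In the Drop-seq libraries these barcodes held 0.769 Ghrhr UMIs per 10000 (95% exact Poisson interval 0.639 to 0.918), against 1.07 in kept cells, and 0.344 Gnrhr UMIs per 10000 (interval 0.259 to 0.448), against 0.450. Drd2 stood at 0.163 in them and 0.173 in kept cells. The Drop-seq libraries entered these pools unequally. Lactating 2 gave 91 of the 1598791 UMIs in low barcodes but 4963159 of the 18437439 in kept cells, where its Sstr5 level was the lowest (0.0222). The part of this mix in the Drop-seq differences was not tested. In the 10X libraries 191 Ghrhr UMIs gave 0.376 per 10000 against 0.728 in kept cells, and Drd2 had 0 UMIs of 5082773. Some receptors stood higher in low barcodes than in kept cells: by 10X Sstr3 (0.0767 against 0.0356), Sstr5 (0.0315 against 0.0211), Avpr1b (0.0118 against 0.00667) and Trhr (0.00984 against 0.00333), and by Drop-seq Sstr5 (0.0751 against 0.0564) and Sstr2 (0.0188 against 0.0141). The kept 10X cells include the barcodes over 10000 UMIs, without which Ghrhr was at 1.02 and 1.55 in the female and male library. Pooled over both libraries without those barcodes, Sstr3 (0.0615) and Trhr (0.00595) stayed below the level of the low barcodes, Avpr1b was about level with it (0.0119) and Sstr5 was above it (0.0377). Macrophages, with 0.123 Ghrhr UMIs per 10000 in all, stood below the low barcodes of both platforms.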
